A study of Mus musculus with 18 samples.

Results

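The control hypothalamus and the control liver of young mice were compared for DNA methylation at single CpG sites. A site entered the comparison when it lay on chromosomes 1 to 19, was listed for both tissues, and had at least 20 reads in the control pool of each. This left 1334113 of the 1985111 CpG sites listed for any tissue of the series, and no measured methylation level was used to choose them. Of these sites, 1281922 also had at least 20 reads in both pools of mice exposed to bisphenol A (BPA), which served as a second hypothalamus and a second liver.

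Methylation of the cytosine in a CpG is a covalent mark that is copied when DNA is replicated. In mammals most CpGs are methylated, whereas dense clusters of CpGs at gene starts, the CpG islands, are mostly not. Regulatory elements used by a cell type often lose methylation in that cell type, so DNA methylation differs between organs. The hypothalamus holds neurons and glia that govern feeding, growth and reproduction, and the liver is made mostly of hepatocytes, which secrete plasma proteins and carry out much of metabolism.

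The series asked how exposure to BPA before birth relates to methylation in 3 tissues, of which gonadal fat is used here only as a reference. All mice were male C57BL/6 offspring at 3 weeks of age. The dams of control offspring were given corn oil orally on days 1 to 20 of gestation, and those of BPA offspring were given the oil with BPA, 5 mg per kg of body weight daily. BPA is a monomer of plastics with weak oestrogen-like activity. The labels name 3 control litters and 4 BPA litters, but not the litter or animal behind a sample. Reduced representation bisulfite sequencing was used: DNA is cut by MspI at CCGG, size-selected and treated with bisulfite, so that CpG-rich fragments are read and unmethylated cytosines are converted. Each of the 4 pools used for the contrast joins 3 samples and gives 1 value per site, with no error between animals. Tissue and library were not separable, since every pool holds 1 tissue only. The authors number the pools 0 and 1, and 0 was taken to be control because a label lists the control group first. With the reverse numbering the control and BPA pools would change names, and every hypothalamus would still be set against a liver of the same group.

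Median depth per site was 121 reads in control hypothalamus, 131 in BPA hypothalamus, 179 in control liver and 170 in BPA liver. A level is the percentage of reads at a site that were methylated. Differences are given in percentage points as hypothalamus minus liver. A site was called when a two-sided Fisher's exact test on the reads of both control pools gave a Benjamini-Hochberg adjusted p under 0.05 over all sites and the levels differed by at least 20 points. This test compares pooled reads, not animals, and all intervals below are 95% intervals for counting error only.

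The 6 stretches of DNA shown here lie just before gene starts and serve to show what was read, because every CpG measured in them was called in 1 direction. They come from the RefSeq promoter table of the build GRCm38.p6 and show 250 bases up to the start, 5′ to 3′ on the strand of the gene. Capitals mark the CpGs that were measured, and CpGs in lower case were not. In the first 3 methylation was lower in liver, and in the last 3 it was lower in hypothalamus. They were chosen after values were seen, as the 3 protein-coding genes per direction with the largest mean difference around the start among those with at least 5 measured CpGs. The mean around the start also had to differ by at least 20 points in the same direction in both pairs, control and BPA.
Acsm3: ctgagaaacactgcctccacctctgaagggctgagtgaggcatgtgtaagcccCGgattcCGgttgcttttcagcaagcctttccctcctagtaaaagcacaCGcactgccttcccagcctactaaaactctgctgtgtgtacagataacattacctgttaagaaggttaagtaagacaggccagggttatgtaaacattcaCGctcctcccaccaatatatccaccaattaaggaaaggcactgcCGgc
Haao: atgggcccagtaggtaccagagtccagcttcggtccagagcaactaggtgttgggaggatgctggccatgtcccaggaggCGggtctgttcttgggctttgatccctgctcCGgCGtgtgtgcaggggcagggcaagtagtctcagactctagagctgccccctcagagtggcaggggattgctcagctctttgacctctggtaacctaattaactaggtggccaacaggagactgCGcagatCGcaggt
Fetub: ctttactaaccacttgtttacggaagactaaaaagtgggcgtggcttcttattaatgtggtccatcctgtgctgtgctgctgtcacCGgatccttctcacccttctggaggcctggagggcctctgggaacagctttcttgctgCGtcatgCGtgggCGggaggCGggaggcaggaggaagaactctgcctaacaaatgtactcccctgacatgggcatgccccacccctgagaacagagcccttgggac
Lingo2: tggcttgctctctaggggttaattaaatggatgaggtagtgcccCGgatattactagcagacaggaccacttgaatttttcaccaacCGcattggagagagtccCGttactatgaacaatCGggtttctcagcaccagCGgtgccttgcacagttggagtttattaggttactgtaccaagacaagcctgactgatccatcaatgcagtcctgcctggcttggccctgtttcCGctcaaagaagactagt
4430402I18Rik: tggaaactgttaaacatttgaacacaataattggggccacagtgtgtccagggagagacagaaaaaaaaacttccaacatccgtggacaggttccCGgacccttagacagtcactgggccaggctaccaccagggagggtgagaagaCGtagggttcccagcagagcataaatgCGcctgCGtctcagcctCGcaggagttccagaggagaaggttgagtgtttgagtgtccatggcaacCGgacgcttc
Abcg8: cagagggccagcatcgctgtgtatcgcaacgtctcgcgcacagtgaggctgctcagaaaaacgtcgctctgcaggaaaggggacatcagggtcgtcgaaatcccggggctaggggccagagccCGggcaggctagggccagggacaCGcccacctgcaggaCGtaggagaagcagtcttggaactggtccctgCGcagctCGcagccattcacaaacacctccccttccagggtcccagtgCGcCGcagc

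Acsm3 encodes a mitochondrial enzyme that activates medium-chain fatty acids, and its stretch is chr7:119760673-119760922 on the plus strand. The CpG nearest the start, 4 bases before it, was 61.8% methylated of 68 reads in control hypothalamus and 4.66% of 236 reads in control liver. Over the 5 measured CpGs the mean was 78.9% in control and 77.5% in BPA hypothalamus, against 6.85% in control and 9.95% in BPA liver. Haao, an enzyme that degrades tryptophan through the kynurenine pathway, was read at chr17:83846791-83847040 on the minus strand. Its 5 measured CpGs averaged 83.2% and 80.7% in control and BPA hypothalamus and 18.5% and 23.2% in control and BPA liver. Fetub, which encodes the plasma protein fetuin-B secreted by hepatocytes, was read at chr16:22919972-22920221 on the plus strand, with means of 74.7% and 68.7% in hypothalamus and 7.50% and 9.09% in liver. At these 3 starts every measured CpG was lower in liver in the control pools, by the way the starts were chosen. Each was also lower in liver in the BPA pools, where 1 CpG of Haao had only 13 reads in hypothalamus. Because the mean around the start had to differ in both pairs, the BPA pools are not a separate check at these starts.

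The reverse held at the other 3 starts. Lingo2, a transmembrane protein of neurons with leucine-rich repeats, was read at chr4:35845205-35845454 on the minus strand, with means over 6 CpGs of 21.9% and 19.9% in control and BPA hypothalamus and 80.9% and 81.3% in control and BPA liver. For 4430402I18Rik, at chr19:28967833-28968082 on the minus strand, the 6 measured CpGs averaged 15.99% and 17.7% in hypothalamus and 71.3% and 68.1% in liver. Abcg8, the partner of Abcg5 in the transporter that secretes sterols into bile, was read at chr17:84676052-84676301 on the plus strand. Its 7 measured CpGs of 17 averaged 6.92% and 6.04% in hypothalamus and 51.7% and 45.8% in liver. Gonadal fat stood at 77.3% for Lingo2, near the liver, and at 2.42% for Abcg8, near the hypothalamus.

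Over all sites the pools were alike in shape. Mean methylation over sites was 50.2% in control hypothalamus and 48.4% in control liver, a difference of 1.80 points, and 50.2% and 48.3% in the BPA pools. Sites over 80% made up 42.0% of sites in control hypothalamus and 38.7% in control liver, and sites under 20% made up 39.5% and 40.7%. Both tissues were under 20% at 511922 sites (38.4% of all) and both were over 80% at 458786 sites (34.4%). Only 1744 sites were over 80% in hypothalamus and under 20% in liver, and 532 were the reverse. When reads were summed over sites in place of averaging site levels, the sign turned, with 50.1% in hypothalamus and 50.7% in liver. Liver had 38.9% of its reads at sites over 80% in both tissues, against 36.8% of the reads in hypothalamus, and with the same read weights in both tissues the difference was 2.08 points.

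**Figure D1:**
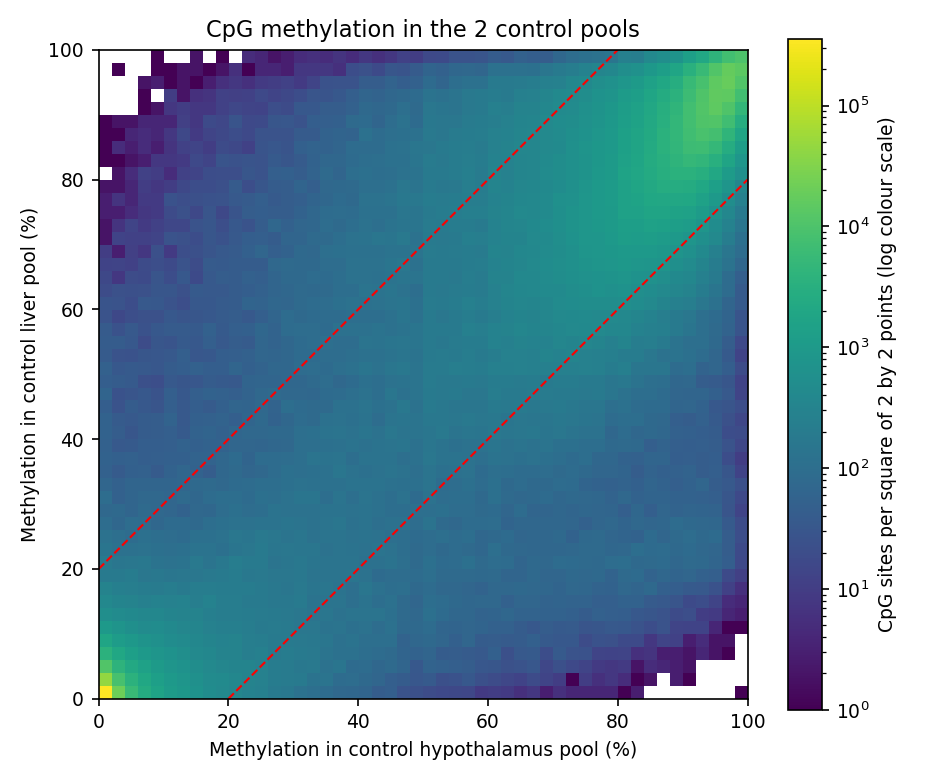
Methylation of each CpG site in the control hypothalamus pool (x axis, %) and the control liver pool (y axis, %), with colour giving the number of sites per square on a log scale and dashed lines 20 points either side of equal levels. Most sites lay in the corners, with 38.4% under 20% in both pools and 34.4% over 80% in both.

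At 118519 sites, 8.88% of those tested, the tissues differed by the call rule. Of these, 69045 (5.18% of tested sites) were lower in liver and 49474 (3.71%) were lower in hypothalamus, so that 58.3% of calls were lower in liver. Sites lower in liver had a median of 76.9% in hypothalamus and 35.2% in liver, and sites lower in hypothalamus had medians of 43.7% and 80.1%. The difference reached 40 points at 33051 sites. At any site an intermediate level could come from a part of the cells or from partial methylation within cells, and in bulk tissue these cannot be told apart.

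The BPA pools gave the same direction at nearly all of these sites. Of 115051 called sites with depth in the BPA pools, 114138 (99.2%) differed in the same direction there, and 86612 (75.3%) again differed by at least 20 points. By the full rule 84253 (73.2%) were called again in the same direction and 3 in the opposite one. Within a tissue the same rule called 10 sites between control and BPA in hypothalamus and 175 in liver. Site differences of the pairs had a Pearson correlation of 0.880 over 1281922 sites, a description only, since sites share reads and neighbours and each tissue was measured by the same procedure in both pairs. The tissue difference itself differed between control and BPA pools, by a Wald test of log odds ratios, at 13 sites (0.00101%), and at 0 sites after dividing by the excess spread between pools within a tissue.

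The largest differences at single well-read sites were close to complete. In the gene of Ifi47, an interferon-induced GTPase, the CpG at position 49087240 of chromosome 11 was 89.8% methylated (85.4 to 93.2, 255 reads) in control hypothalamus and 92.6% of 243 reads in BPA hypothalamus. In liver it was 2.94% (1.58 to 4.98, 442 reads) in control and 2.99% of 401 reads in BPA, a difference of 86.9 points in the control pair (82.1 to 90.2, adjusted Fisher p = 6.02e-130). Ifi47 shares this site with the overlapping gene Gm12188, and the control fat pool stood at 55.7%, between the tissues. The next largest, 2 CpGs on chromosome 4 that lie 43411 and 43462 bases from the cadherin gene Cdh17, had 92.6% and 92.5% in control hypothalamus and 6.27% and 6.90% in control liver.

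In the other direction, the kinase gene Taok3 held 2 of the 3 largest. Its CpG at position 117243249 of chromosome 5 had 6.25% of 144 reads in control and 14.7% of 143 in BPA hypothalamus, against 94.2% of 120 in control and 98.2% of 111 in BPA liver. The control difference was -87.95 points (-92.1 to -80.2, adjusted Fisher p = 3.60e-51). The site in Dab2ip, which encodes a Ras GTPase-activating protein, at position 35662986 of chromosome 2 had 7.86% and 3.39% in control and BPA hypothalamus and 94.9% and 86.7% in control and BPA liver. These 6 sites were chosen for their large differences in the control pools, so the gap there was set by the choice. The BPA pools differed in the same direction at each of them.

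Called sites lay in stretches that moved together. A called site was followed within 10 bases by another site called in the same direction in 70.1% of 19311 cases, and never by one called in the opposite direction. The share fell to 44.7% at gaps of 100 to 200 bases and to 8.65% at 5000 to 50000 bases, where 5.84% were called the opposite way. Sites within 10 bases of each other can lie on the same reads. Calls were more frequent away from gene starts: 8.08% of sites 2000 to 5000 bases downstream of a listed start were lower in liver and 6.55% lower in hypothalamus. In the first 250 bases after a start these shares were 1.02% and 0.766%, and mean levels were 4.10% in hypothalamus and 4.26% in liver. In that bin the mean difference was -0.159 points in the control pair and 0.454 in the BPA pair, so its sign differed between the pairs.

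**Figure D2:**
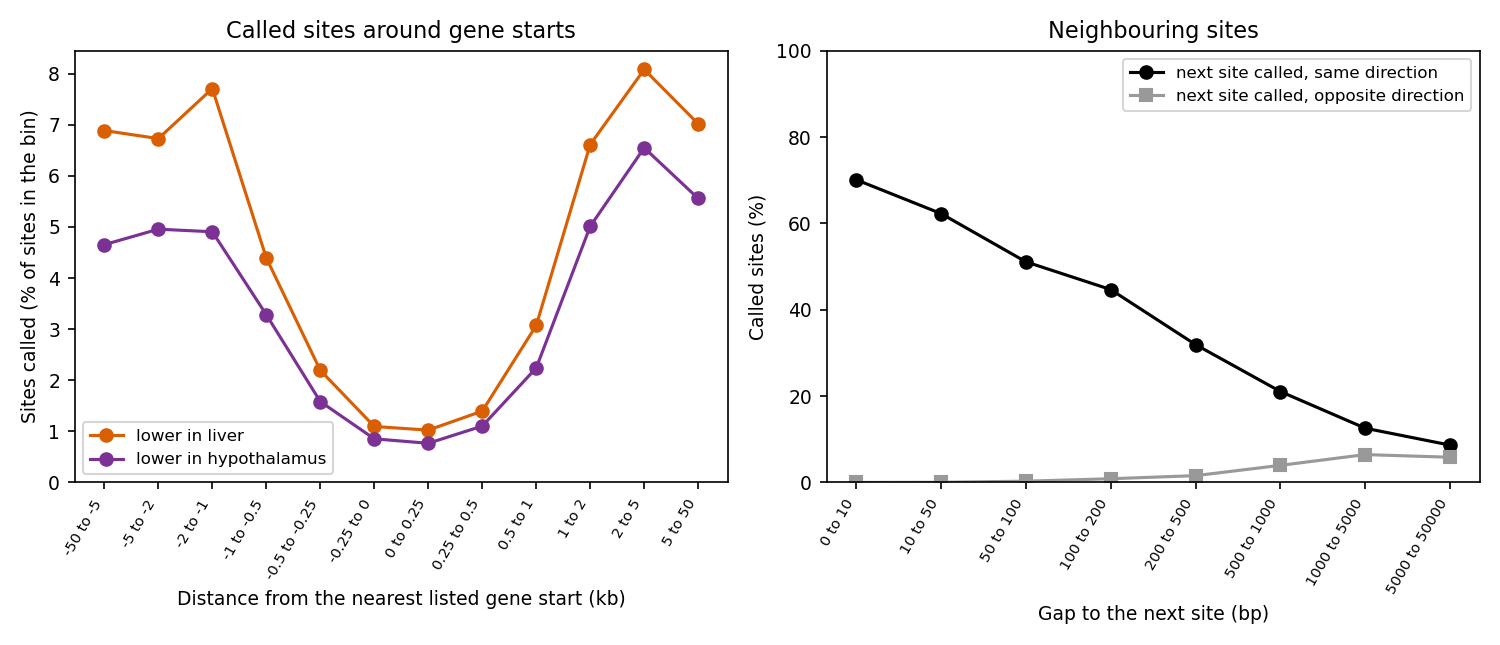
Left, the percentage of measured sites called lower in liver (orange) or lower in hypothalamus (purple) by distance from the nearest listed gene start in kb; right, the percentage of called sites whose next measured site was called in the same (black) or opposite (grey) direction by the gap in bp. Calls in each direction dipped to about 1% beside starts, and same-direction neighbours fell from 70.1% to 8.65% as the gap grew.

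CpG density followed the same order. Sites with at most 2 other measured CpGs within 100 bases had means of 77.6% in hypothalamus and 73.9% in liver, and 8.98% of them were lower in liver and 5.40% lower in hypothalamus. Sites with 16 or more had means of 2.02% and 2.41%, and 0.570% and 0.518% were called in each direction. For these dense sites the mean difference was -0.386 points in the control pair and 0.286 in the BPA pair, so its sign differed between the pairs. The median called site had 2 such neighbours when lower in liver and 3 when lower in hypothalamus, against 5 over all sites.

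Stretches of at least 5 consecutive sites, at most 200 bases apart and all called in 1 direction, are named runs here. There were 2372 runs lower in liver, with 16321 sites, and 2195 lower in hypothalamus, with 15989 sites. Liver was under 20% in 977 (41.2%) of the runs lower in liver, whereas hypothalamus was under 20% in 409 (18.6%) of the runs lower in hypothalamus. In the BPA pools, 2277 and 2127 of these runs again differed by at least 20 points, and none had the opposite sign. Because sites of a run share reads, a run counts as 1 item and has no test of its own.

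The 12 runs lower in liver with the largest summed difference included 1 in a gene of hepatocyte function. Fgg encodes the gamma chain of fibrinogen, the clotting protein of plasma, and its run of 17 sites covers positions 83012679 to 83012987 of chromosome 3, inside the gene and 5109 bases from its start. The run averaged 92.4% in control and 93.1% in BPA hypothalamus, and 24.6% in control and 27.6% in BPA liver. No single site of the run exceeded 32.4% in control liver or fell under 80.5% in control hypothalamus. Fat resembled hypothalamus there, at 87.6%.

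The run with the most sites lower in liver was in Ccdc177, a gene for a coiled-coil protein, with 53 sites over 440 bases at 80757484 to 80757923 of chromosome 12. It averaged 48.9% and 51.0% in control and BPA hypothalamus and 4.38% and 4.17% in control and BPA liver, with fat near liver at 7.18%. Ajm1, for a protein of apical cell junctions, and Disp3, a patched-domain protein of neural cells, had the same pattern: intermediate in hypothalamus (55.2% and 53.8%), low in liver (10.9% and 8.68%) and low in fat (11.9% and 9.85%). Hypothalamus was instead near full methylation, and liver much lower, in the runs of Rnf186, an ubiquitin ligase of the endoplasmic reticulum (89.1% and 32.7%), Lrpprc, a mitochondrial RNA-binding protein (89.7% and 19.6%), and Hspg2, the basement-membrane proteoglycan perlecan (91.1% and 27.8%). Neat1, the noncoding RNA that scaffolds paraspeckles, had 73.6% in hypothalamus and 9.25% in liver.

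The 12 runs lower in hypothalamus with the largest summed difference were led by Sh2b3, Zfpm1, Urad and Gata4, and included Gata6. Gata4 and Gata6 encode transcription factors of endoderm and heart that hepatocytes also use, and Zfpm1 encodes FOG-1, a protein that binds GATA factors. The Gata4 run of 50 sites, at 63240866 to 63241822 of chromosome 14, averaged 5.34% and 5.81% in control and BPA hypothalamus and 59.5% and 50.9% in control and BPA liver. The Gata6 run of 27 sites, at 11058757 to 11059297 of chromosome 18, averaged 6.62% and 7.79% in hypothalamus and 65.3% and 63.1% in liver. Both genes were thus more methylated in liver over these stretches, in each pair of pools. Zfpm1 held 2 of the 12 runs, the longer with 50 sites at 23.4% in control hypothalamus and 86.9% in control liver.

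Sh2b3 encodes Lnk, an adaptor that restrains cytokine signalling in blood cells. Its 55 sites at 121828413 to 121828941 of chromosome 5, 7427 bases downstream of the start, averaged 21.4% and 21.6% in control and BPA hypothalamus and 82.7% and 80.8% in control and BPA liver. Urad encodes an enzyme of uric acid breakdown, and its run was the longest, with 57 sites over 1640 bases at the end of the gene away from its start. It averaged 3.90% and 3.59% in hypothalamus, 54.0% and 49.1% in liver, and 2.52% in fat. Other runs with hypothalamus under 10% and liver over 50% in the control pools were in Espn, an actin-bundling protein of hair cells, Taok3, Shank2, a postsynaptic scaffold, and Atg7, an enzyme of autophagy. Fignl2 (20.8% and 72.5%) and Nfix, a nuclear factor I transcription factor (17.4% and 75.8%), complete this set.

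**Figure D3:**
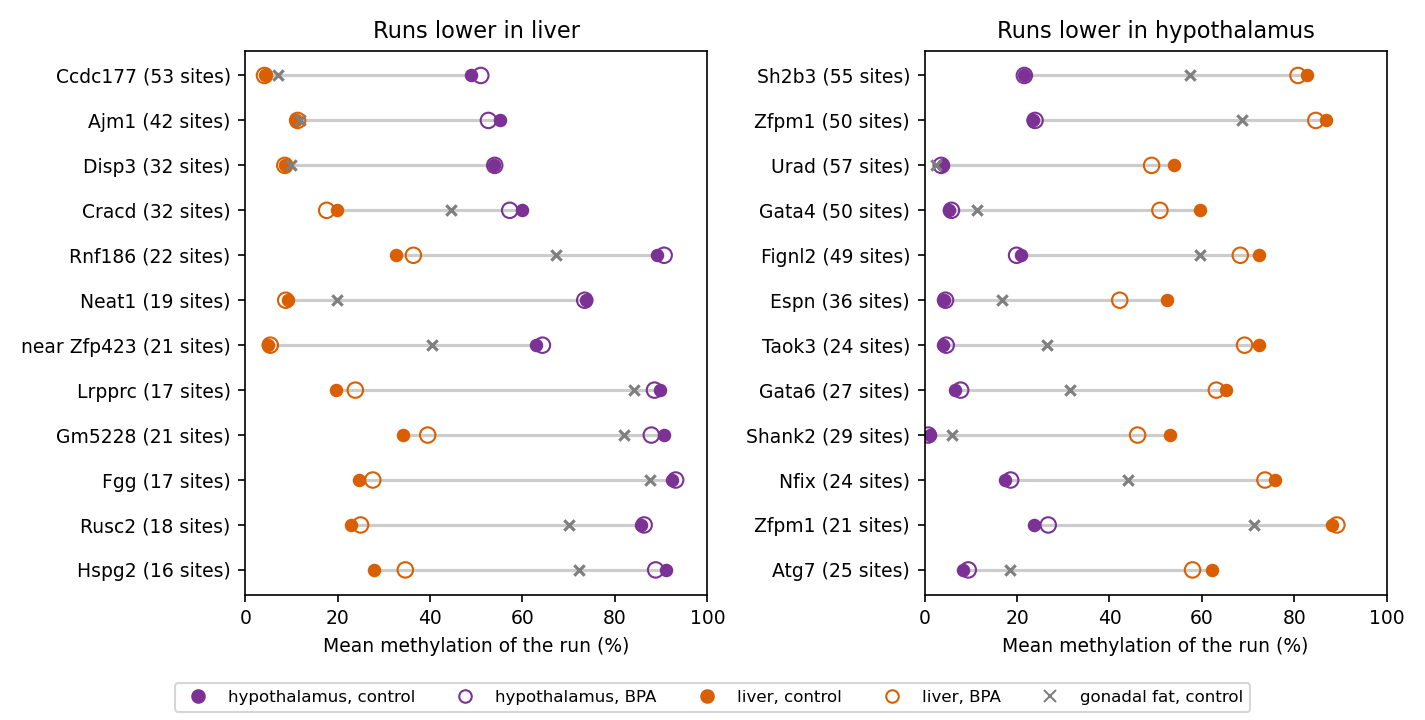
Mean methylation (x axis, %) of the 12 runs per direction with the largest summed difference, 1 row per run with its number of sites, for control (filled) and BPA (open) pools of hypothalamus (purple) and liver (orange), and for control gonadal fat (grey crosses). In each row both hypothalamus pools lay on the same side of both liver pools, and fat lay near liver for Ccdc177, Ajm1 and Disp3 and near hypothalamus for Urad and Fgg.

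Site by site, the 4 runs drawn in detail, chosen after their values were seen, differed in shape. In Fgg each control pool varied by less than 20 points across the run. In Gata4 the liver ranged from 24.3% to 89.3% in the control pool and from 20.8% to 63.3% in the BPA pool, while hypothalamus stayed at or under 20.7% in both. In Urad the liver ranged from 21.0% to 73.7%. In Ccdc177 hypothalamus ranged from 24.7% to 75.0% within the run, and 51 more measured sites within 600 bases beyond it were also drawn.

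**Figure D4:**
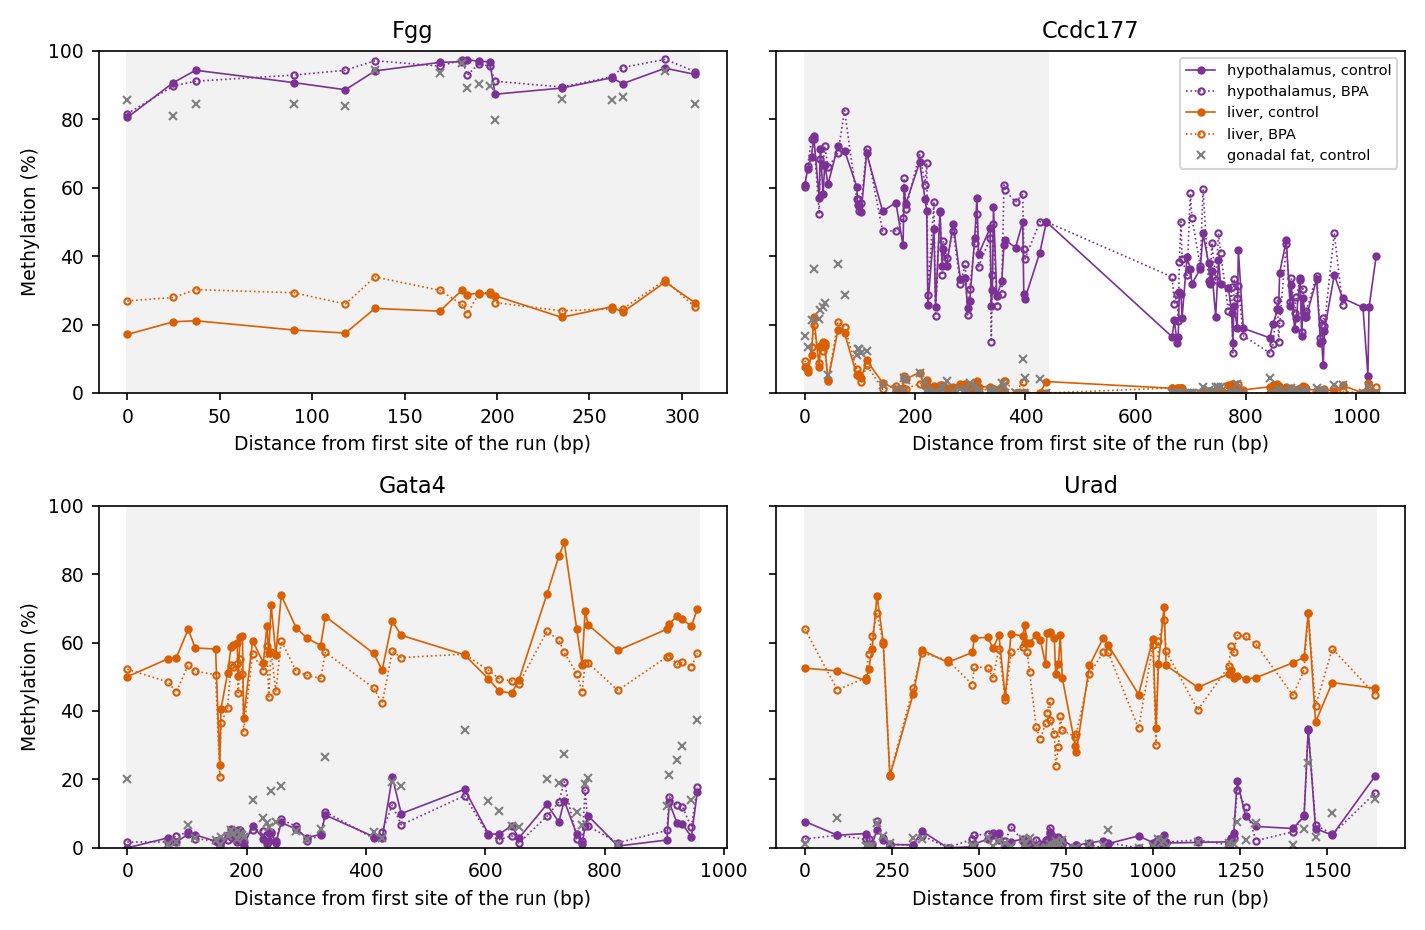
Methylation of each CpG (y axis, %) by distance in bp from the first site of the run in Fgg, Ccdc177, Gata4 and Urad, with control pools as filled points and solid lines, BPA pools as open points and dotted lines, control fat as crosses, and the run shaded. In the control pools hypothalamus lies above liver at every site of the Fgg and Ccdc177 runs and below it in Gata4 and Urad. This order follows from how a run is defined. The BPA pools, which were not used to define runs, have the same order at these sites.

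Some genes held several runs. Gse1 had 15 runs lower in hypothalamus with 137 sites, Nav2, a neuron navigator, had 7, and Shank2 had 6. Pxn, which encodes the focal adhesion protein paxillin, had 8 runs lower in liver with 58 sites, and Sema6c, a semaphorin, had 6. Runs in both directions were found in 302 genes. These counts were not set against gene length or the number of measured sites, so they are not read as a trait of these genes.

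Gene by gene, the site levels over the gene and 1 kb on either side were averaged wherever at least 5 sites were measured in both pairs. The BPA mean covers only sites with depth in the BPA pools, so for some genes it rests on fewer sites than the control mean. A gene was called, with no test, when hypothalamus and liver differed by at least 10 points in the same direction in the control pair and in the BPA pair. Of 16132 protein-coding genes, 1048 (6.5%) were called, 741 lower in liver (4.59%) and 307 lower in hypothalamus (1.9%). Lower in liver were thus 70.7% of called genes, but 54.1% when gene levels were taken from summed reads. The median difference over all measured protein-coding genes was 0.0447 points in the control pair and 0.508 in the BPA pair. Within 1 kb of listed starts alone, 526 of 10289 genes (5.11%) were called, 363 lower in liver (3.53%) and 163 lower in hypothalamus (1.58%).

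Genes for proteins that hepatocytes secrete were lower in liver as a group. Of the 25 listed, 15 were measured and 13 were called lower in liver, beside 4.59% of all genes, and none was lower in hypothalamus. Their median difference was 30.8 points. All 3 fibrinogen genes were among them: Fgb averaged 91.2% and 91.6% in control and BPA hypothalamus and 23.8% and 25.5% in control and BPA liver, and Fga 72.0% and 72.1% against 41.2% and 47.4%. Ahsg, which encodes the plasma protein fetuin-A, had 90.3% and 84.4% in hypothalamus and 29.3% and 35.3% in liver over 9 sites. Apob, the core protein of lipoproteins made by liver, had 75.4% and 25.4% in the control pools, and Trf, the iron carrier transferrin, had 80.8% and 42.0% over 52 sites. The exceptions were Plg, plasminogen, at 93.6% and 89.1%, and Apoa2, an apolipoprotein, at 3.95% and 4.57%. Albumin and 9 other listed genes had too few sites.

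Metabolic enzymes of liver and hepatocyte transcription factors were called in both directions. Of 18 metabolic genes measured, 9 were lower in liver and 2 lower in hypothalamus, beside 4.59% and 1.9% of all genes. Pck1, which drives gluconeogenesis, had 82.9% and 83.6% in control and BPA hypothalamus and 31.1% and 32.1% in control and BPA liver. Arg1, the arginase of the urea cycle, had 71.8% against 40.4% in the control pools, and Cyp7a1, the rate-limiting enzyme of bile acid synthesis, had 87.3% against 56.7% over 5 sites. Cps1, the first enzyme of the urea cycle, went the other way, at 47.1% and 43.4% in hypothalamus and 68.8% and 71.0% in liver over 8 sites, and Hgd, an enzyme of tyrosine breakdown, at 74.7% and 89.8% in the control pools.

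Of 21 transcription factor genes measured, 6 were lower in liver and 2 lower in hypothalamus, beside 4.59% and 1.9% of all genes. From summed reads 4 were lower in liver, without Foxa3 and Ppara. Hnf4a, a nuclear receptor that maintains hepatocyte identity, had 82.4% and 82.1% in control and BPA hypothalamus and 59.0% and 56.0% in control and BPA liver. Within 1 kb of its listed starts Hnf4a was further apart, at 87.1% in control hypothalamus and 19.8% in control liver over 7 sites. Nr5a2 went the other way near its starts, at 3.90% and 21.0% over 32 sites. Of 13 genes of this list measured near starts, 2 were lower in liver and 1 lower in hypothalamus, beside 3.53% and 1.58% of all. Their median difference was 0.297 points. Over the whole gene, Creb3l3, a membrane-bound factor of the liver fasting response, had 69.8% and 37.9%. The 2 lower in hypothalamus were Gata4, with 22.0% and 37.7% over 186 sites, and Gata6, with 8.80% and 24.0% over 142. Foxa1, Foxa2, Cebpa, Cebpb, Hhex and Xbp1 were at or under 5.65% in both control pools.

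None of 21 neuron identity genes was called, beside 6.5% of all genes, a share at which a list of this size would hold few calls. Their median difference was -0.468 points in the control pair, against 0.0447 over all genes. In the BPA pair it was 0.0186 points, against 0.508 over all genes, so its sign differed between the pairs. Rbfox3, which encodes the neuronal nuclear antigen NeuN, had 48.5% in control hypothalamus and 43.7% in control liver over 537 sites, and Snap25, a synaptic vesicle fusion protein, had 17.2% and 20.8%. Of 24 synaptic genes, Grin1, the obligate NMDA receptor subunit, was lower in liver (32.5% and 21.1%), and Dlg4, the postsynaptic scaffold PSD-95, was lower in hypothalamus (36.8% and 48.8%). Of 32 transcription factors of the hypothalamus, Lhx2 (16.2% and 5.42%, lower in liver) and Tbx3 (5.53% and 25.5%, lower in hypothalamus) were called. These shares are near the 6.5% of all genes. From summed reads the control differences of Grin1 and Lhx2 were 9.44 and 9.78 points, and neither was called. Summed reads instead called 2 other synaptic genes lower in liver. The median levels of these 32 genes were 3.81% in hypothalamus and 3.40% in liver. Levels near 0 in both tissues leave little room for a call of 10 points.

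Of the neuropeptide genes, 3 were lower in hypothalamus and 1 lower in liver. Ghrh, the releasing hormone of growth hormone, averaged 32.05% and 32.9% over 37 sites in control and BPA hypothalamus and 64.2% and 63.8% in control and BPA liver. Tac2, the precursor of neurokinin B, had 35.2% and 32.7% in hypothalamus and 56.2% and 62.7% in liver. Pdyn, the dynorphin precursor, had 50.3% in hypothalamus and 68.4% in liver over 27 sites in the control pools, and 62.3% and 77.0% over 24 sites in the BPA pools. From summed reads its hypothalamus levels were 59.7% and 62.7%, so the control and BPA means over unequal sites are not compared. Kiss1, the kisspeptin gene, was lower in liver, at 37.3% and 25.4% in the control pools, but its difference from summed reads was 0.942 points in the control pair and -3.49 in the BPA pair. The 4 calls among 22 measured genes of this list stand beside 6.5% of all genes. Pomc, Agrp, Npy, Avp, Oxt and Crh were among the 18 measured genes of this list that were not called, and the list median was 0.864 points.

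Markers of the other cells that the tissues hold were called in both directions, in small numbers that are read beside 4.59% of all genes lower in liver and 1.9% lower in hypothalamus. Of 15 astrocyte genes, Aldh1l1, a folate enzyme (63.4% and 37.7%), and Acsbg1 were lower in liver. Of 17 oligodendrocyte genes, Cnp, a myelin enzyme (60.4% and 75.5%), and Gpr17, a receptor of oligodendrocyte precursors (75.9% and 91.9%), were lower in hypothalamus. Among 19 endothelial genes, 4 were lower in liver, including Stab2, a scavenger receptor of liver sinusoids (85.4% and 72.1%), Oit3 (89.0% and 69.5%) and Cdh5. Krt7, a keratin of bile ducts (49.6% and 27.0%), Spp1 and Col1a1 were lower in liver among 13 genes of bile duct and stellate cells. Of 16 genes of microglia, Kupffer cells and leukocytes, Marco, a macrophage scavenger receptor, was lower in liver and Ptprc, the leukocyte antigen CD45, was lower in hypothalamus (42.9% and 62.1%). The shares of these cells in each tissue were not measured, and their part in the differences was not tested.

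None of 39 Hox genes was called, beside 6.5% of all genes. These homeobox genes set position along the body axis, and their median levels were 3.46% in hypothalamus and 4.70% in liver. None of 15 germline genes, which somatic cells keep silent by methylation, was called either, with medians of 84.4% and 76.6%, though 2 were called lower in liver from summed reads. None of 16 housekeeping genes was called, although Rps18, a ribosomal protein gene, had 0.737% in control hypothalamus and 11.7% in control liver over 79 sites and missed the threshold in the BPA pair. Of 26 imprinted genes, which carry methylation on 1 parental copy, 5 were lower in hypothalamus and 1 lower in liver, beside 1.9% and 4.59% of all genes. Nap1l5, a nucleosome assembly protein gene, had 38.8% and 34.9% in control and BPA hypothalamus and 61.6% and 51.2% in liver, and the noncoding RNA gene Meg3 had 51.1% and 65.7% in the control pools. H19, a maternally expressed noncoding RNA gene, was the 1 lower in liver, with 75.35% in hypothalamus and 52.9% in liver over 18 sites in the control pools and 81.0% and 58.9% over 14 sites in the BPA pools. Its summed reads gave 83.8% and 84.2% in control and BPA hypothalamus and 59.1% and 60.1% in liver.

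**Figure D5:**
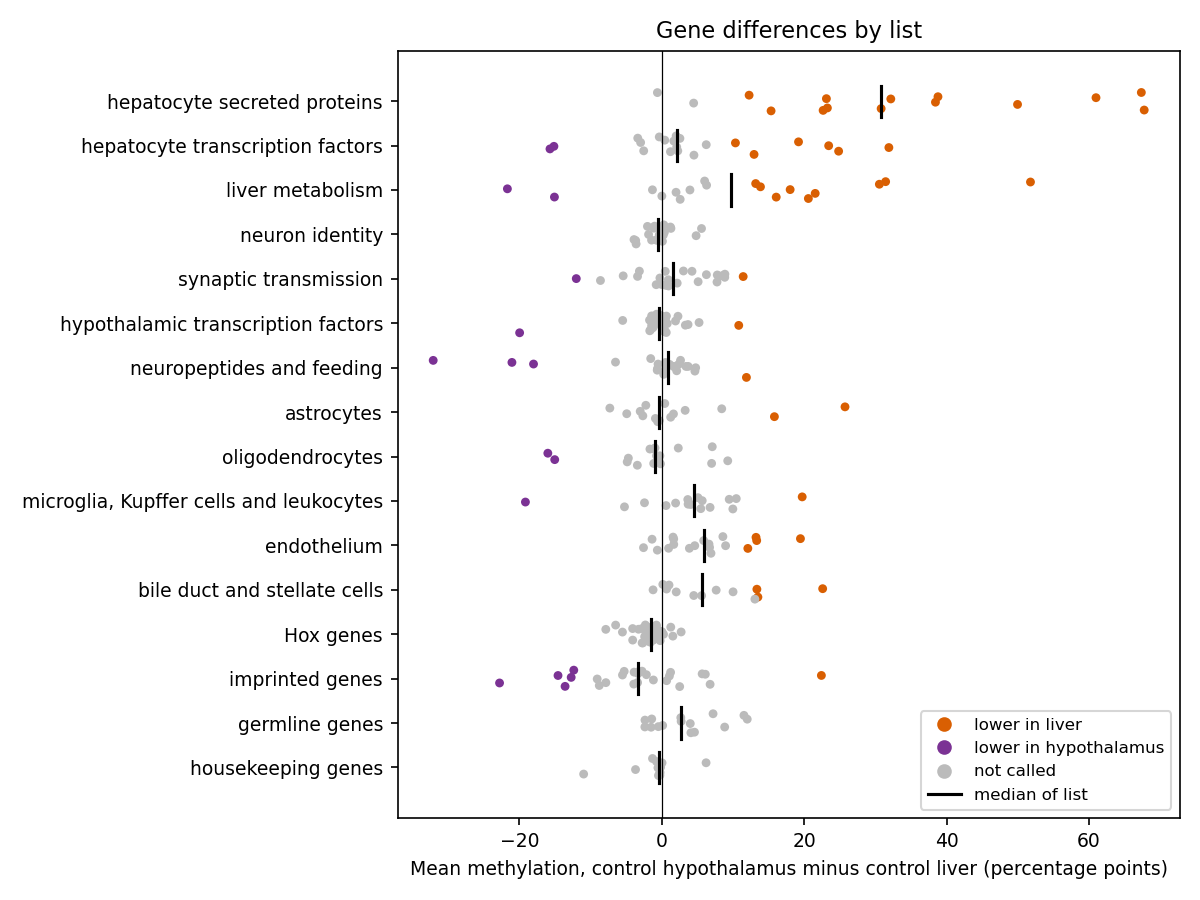
Mean methylation difference of each measured gene (x axis, percentage points, hypothalamus minus liver in the control pools) by gene list, with genes called lower in liver in orange, lower in hypothalamus in purple, not called in grey, and the list median as a black bar. Secreted hepatocyte proteins had a median of 30.8 points with 13 of 15 called, whereas neuron identity genes lay between -3.90 and 5.58 with none called.

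Outside the lists, the following protein-coding genes lower in liver were among those with the largest mean differences and at least 10 sites. Apoc4, an apolipoprotein gene, had 83.7% and 85.9% in control and BPA hypothalamus and 20.8% and 23.5% in control and BPA liver, and the overlapping Gm44805 shares its sites. Tstd1, a sulfurtransferase-like gene, had 80.05% and 21.4% in the control pools. Depp1, a regulator of autophagy, had 71.4% and 14.5%, and all 21 of its sites were called. Il22ra1, a receptor subunit for interleukin-22, had 77.3% and 23.1%.

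In the other direction Vxn, which encodes the neural protein vexin, had 30.1% and 30.5% in control and BPA hypothalamus and 85.1% and 87.0% in control and BPA liver over 15 sites. Lrrc4, a postsynaptic adhesion protein, had 40.8% and 92.2% in the control pools, and Lrrn3, a neuronal protein with leucine-rich repeats, had 10.1% and 53.3%. Not all of this group are neuronal by name: Cpa4, a carboxypeptidase, had 40.6% and 83.9%, Hspb3, a small heat shock protein, 25.8% and 68.8%, and Dnajb3, a chaperone of the DnaJ family, 1.81% and 50.03%. Fat was at 83.3% for Vxn and 85.8% for Lrrc4, near liver, and at 12.0% for Dnajb3.

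Gonadal fat lay between the pair at most called sites. Where liver was lower, the fat median was 60.5%, and fat lay between hypothalamus and liver at 74.4% of 68776 sites and nearer to hypothalamus at 53.4%. Where hypothalamus was lower, the fat median was 58.9%, and fat lay between them at 65.5% of 49283 sites and nearer to hypothalamus at 53.1%. In neither direction did fat side with 1 tissue throughout.

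Short sequence motifs were counted on both strands in the 300 bases around listed starts, in 9321 windows with at least 3 measured sites in both pairs. In 136 of these windows the mean was lower in liver and in 87 it was lower in hypothalamus, by at least 20 points in both pairs. The letters TGTTTAC, bound by FOXA factors, were in 2.05% of all windows, in 8 (5.88%) of those lower in liver and in 0 of those lower in hypothalamus. TAATTA, a homeobox core, was in 1.79%, 3.68% and 6.90%, and CAGATG, an E-box of neural factors, in 9.72%, 19.12% and 19.5%. GTTGCCATG of RFX factors was in 0.633% of all windows, in 0 of those lower in liver and in 3 (3.45%) of those lower in hypothalamus, and CCATTGT of SOX factors in 1.66%, 2.21% and 0 windows. CAAAGTCCA of HNF4A and TTGCGCAA of CEBP factors were each in 1 window lower in liver, in 0 lower in hypothalamus, and in 0.279% and 0.290% of all. Windows lower in either tissue had a median G+C content of 55% against 64% over all windows, and the part of base composition in these shares was not tested. In the stretches printed above, TGTTTAC occurs for Fetub and, on the other strand, for Acsm3, 5 bases from a measured CpG. TAATTA occurs for Haao and Lingo2, and GTTGCCATG, on the other strand, for 4430402I18Rik. A match describes letters and not a bound site.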

How the data were processed

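Reduced representation bisulfite sequencing of 18 samples was deposited as 1 table per tissue. Reads were aligned with BSMAP to GRCm38 (mm10), per the submitters' processing notes. Versions, removal of PCR copies and conversion rates are not given in the sources used here. By their headers, the deposited tables hold 2 values per CpG and pool. The deposited count is the number of reads covering a CpG in a pool, and the deposited methylation fraction is the methylated share of those reads, to 3 significant digits. Each pool joins 3 samples, and no value per sample was used. Methylated reads were taken as fraction times count, rounded. File starts count from 0, as checked against RefSeq promoter sequences, and positions here count from 1.

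Fisher's exact test was computed with numba 0.67.0 and numpy 2.4.6, checked against scipy 1.17.1 and tested on simulated data, under Python 3.11.15 with pandas 2.3.3. Intervals are Clopper-Pearson for levels and Newcombe for differences, for counting error only, since reads were amplified without molecular identifiers and may copy each other. Whether the tissue difference differed between control and BPA pools was tested by a Wald test of log odds ratios, with 0.5 added to each cell. RefSeq gene positions on GRCm38.p6 had no strand or exons, so a site is given only as within a gene span. The promoter table lists a start for 79.3% of protein-coding genes with sites and none on 1 of the chromosomes. All 363 entries of the 16 gene lists matched.

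Named were the 12 runs per direction with the largest summed difference, leaving out runs with a site among the deepest 0.1%. Also named were the 3 called genes per list with the largest difference, the 8 genes per direction with the largest difference among those with at least 10 sites, and the 3 sites per direction with the largest difference at 100 or more reads in all 4 pools. The members and lists were chosen with earlier results of these data known. Further genes, given as examples of their lists, and the printed stretches were chosen after their values were seen. The printed stretches replace the densest bases of the top runs, for which a genome sequence was not used here. Alternatives covered depth, size and spacing thresholds, weighting by reads, excess spread and the BPA pools. Sex and mitochondrial chromosomes and the deposited comparisons within a tissue were left out, and some genes and a motif within the rules are not reported here.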

Additional observations from a re-analysis of the deposited data

Results flagged for a closer look

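At 13 of 1281922 sites (0.00101%) the difference between hypothalamus and liver itself differed between the control and the BPA pools, by a Wald test of log odds ratios with Benjamini-Hochberg adjusted p under 0.05 and a change of at least 20 points. An unadjusted p under 0.05 was found at 49801 sites (3.88%). In the control pools, 38.4% of all compared sites were under 20% in both tissues and 34.4% were over 80% in both. How often this test gives such a p at these sites where nothing differs was not tested. The share is therefore not compared with 0.05. After dividing by the excess spread between pools within a tissue, 0 sites passed, and without the deepest 0.1% of sites 13 passed. In Dpf3, a chromatin remodelling subunit, 2 neighbouring sites changed alike, at positions 83310848 and 83310874 of chromosome 12. They can lie on the same reads, so they do not count as 2 separate observations. At the first, hypothalamus had 73.6% and 67.0% in control and BPA, and liver had 34.9% and 60.1%. In Camkk2, a kinase upstream of AMP-activated kinase, the difference was 23.4 points in control and -5.9 in BPA. These 2 genes were singled out after their values were seen, and their reads come from 1 pool per group, so animal and treatment cannot be told apart.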

How the results depend on the processing

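The count of called sites stayed within 1.5 times of 118519 at depth minimums of 10 and 50 reads, with excess spread, in the BPA pools and without the deepest sites. It was 251925 at 5 points, 33051 at 40 points and 46389 with 1 site per 200 bases. The share lower in liver was 57.5% at 50 reads, 65.8% at 5 points, 60.8% at 40 points, 57.8% with excess spread, 56.9% in the BPA pools and 60.8% with 1 site per 200 bases. Runs numbered 12122 with at least 3 sites. The mean difference was 1.92 points in the BPA pools and 2.98 with 1 site per 200 bases. It was 2.08 with common read weights and 1.80 without the deepest sites. From summed reads it reversed to -0.616, and to -0.595 from summed reads without the deepest sites. Called genes numbered 526 within 1 kb of starts and 2995 at 5 points, and 54.1% of those called were lower in liver from summed reads. Under summed reads, 44 of 46 named genes stayed called, while Grin1 (9.44 points) and Lhx2 (9.78) fell short, and Lhx2 was at 1.68 near its starts. Of the other called genes on the lists, Foxa3, Ppara and Kiss1 lost their calls from summed reads. Summed reads also added calls: 7 imprinted genes were lower in hypothalamus in place of 5, and 5 endothelial genes were lower in liver in place of 4. Calls lower in liver were also added in the synaptic, oligodendrocyte, microglia, bile duct and germline lists. All 24 named runs kept their direction in the BPA pools. They kept it under summed reads too, but every site of a run already differed by at least 20 points that way. The changed contrast was called at 0 sites with excess spread. The common weights, the summed reads without the deepest sites and both alternatives to the changed contrast were chosen after seeing the data. No paired analysis was possible because the tables give pools without replicate numbers, and no replicate could be left out for the same reason. Depth sets the precision of single sites: a level based on 20 reads moves by 5 points with each read, so small differences at shallow sites were not detectable.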
